A study of Mus musculus with 2 samples.

Results

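Laminin, dystrophin and integrin adhesion genes were followed through the nuclei of mouse skeletal muscle. The set was 10 genes, picked by symbol for what they encode, of the 32285 in the count table: the laminin chain genes Lama2, Lama4, Lamb1 and Lamc1, the laminin linker gene Nid1, the laminin receptor genes Dag1 and Itga7, and the dystrophin-side genes Dmd, Utrn and Sgcd. All 10 were in the table, and they were chosen with earlier results of these data known. Single-nucleus RNA sequencing had been run on gastrocnemius and plantaris, a pair of calf muscles, from wild-type C57BL/6 mice aged 12 weeks, with 1 library per muscle. Nuclei were freed from minced tissue with a bead homogeniser and sorted by propidium iodide, a DNA dye. The libraries carried no other allele, injury or agent in the labels, and the sources used here give neither the number nor the sex of the mice.

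Laminins are trimers of an alpha, a beta and a gamma chain that polymerise into the basement membrane around each muscle fibre, and nidogen links that sheet to collagen IV. On the fibre surface, dystroglycan (Dag1) and integrin α7 (Itga7) bind laminin; inside, dystrophin (Dmd), steadied by the sarcoglycans (Sgcd), ties dystroglycan to actin. Utrophin (Utrn) is the close relative of dystrophin that is found at the neuromuscular junction, where the nerve meets the fibre, and loss of Lama2, Dmd or Sgcd causes muscular dystrophy. The myotendinous junction, where the fibre ends on the tendon, is the other site where this linkage carries force.

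Nuclei were grouped by marker genes, and each class name means nuclei like that type. Myonuclei, the nuclei inside fibres, were split by junction genes that are not among the 10. Myonuclei with 3 or more UMIs (unique molecular identifiers, which count captured RNA molecules) of Col22a1, a collagen gene of the myotendinous junction, numbered 51 in gastrocnemius and 106 in plantaris. Myonuclei with any UMI of Colq or Ufsp1, genes of the neuromuscular junction, numbered 84 and 93. The remaining body myonuclei numbered 4960 and 5598, and 1 and 4 nuclei that passed both gates were left out. Mesenchymal nuclei numbered 1098 and 1636, endothelial nuclei 46 and 85, and mural nuclei (pericytes and smooth muscle) 173 and 206.

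Junction markers that took no part in the gates were also higher there. The other 5 myotendinous markers, without Col22a1, summed to 3006 and 2660 CPM in the myotendinous gate and to 45.9 and 59.2 CPM in body myonuclei. The other 6 neuromuscular markers, without Colq and Ufsp1, summed to 2222 and 3073 CPM in the neuromuscular gate and to 698.5 and 397 CPM in body myonuclei. CPM is a gene's UMIs per 1000000 UMIs of the class total in that library. Intervals in parentheses are at 95% and cover counting error only. Neither muscle has a replicate library, so no test was made; muscle, animal and library cannot be told apart. A gene was called higher or lower between classes when it differed 2-fold or more in the same direction in both libraries, among genes with 20 or more UMIs over the 2 classes in each library. The kit reads the 3' ends of RNA, and levels are compared for 1 gene across classes, never between genes.

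Nuclei of gastrocnemius had a median of 2260 UMIs and those of plantaris 2714, and body myonuclei (2834.5 and 3322.5) were deeper than mesenchymal (1349 and 1553), endothelial (1107.5 and 1015) and mural nuclei (1224 and 1581). The libraries shared 17 barcode sequences. RNA of fibres was present in every other class: Ttn, the titin gene, stood at 15.2% and 19.4% of its body myonuclear level in mesenchymal nuclei and at 42.4% and 47.7% in pericytes. In mesenchymal nuclei it was the lowest of 7 myonuclear markers, whose median stood at 24.7% and 27.5%. RNA of mesenchymal cells was present in body myonuclei, where 7 and 8 mesenchymal markers stood at a median of 1.32% and 1.42% of their mesenchymal level. A gene's level in a class is read beside these shares.

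Lama2 and Utrn are the genes that later stand apart in neuromuscular nuclei, so the 250 bases before a RefSeq transcription start of each are shown, from build GRCm38.p6. The table of starts matched 7 of the 10 genes, and Lama4, Lamc1 and Itga7 were not in it. The Lama2 window is chr10:27616943-27617192 and the Utrn window chr10:12861736-12861985, both on the minus strand, printed 5′ to 3′. Capitals mark matches, on either strand, to the N-box CCGGAA of ETS factors, the E-box CANNTG of myogenic factors or the MCAT element CATTCC of TEAD factors.

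Lama2: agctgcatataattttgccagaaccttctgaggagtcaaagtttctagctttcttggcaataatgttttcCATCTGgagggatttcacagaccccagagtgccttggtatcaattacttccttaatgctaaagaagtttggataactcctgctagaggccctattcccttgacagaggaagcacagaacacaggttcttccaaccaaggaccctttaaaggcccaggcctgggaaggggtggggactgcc

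Utrn: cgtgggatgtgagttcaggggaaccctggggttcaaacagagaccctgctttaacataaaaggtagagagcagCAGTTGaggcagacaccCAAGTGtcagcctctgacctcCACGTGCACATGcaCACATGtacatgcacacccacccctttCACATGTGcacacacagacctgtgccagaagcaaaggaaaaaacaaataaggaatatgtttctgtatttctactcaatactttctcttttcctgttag

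The Lama2 window held 1 E-box match and the Utrn window 7, some of which overlap one another, and neither held an N-box or MCAT match. Over 32851 such windows, 66.2% held an E-box match, 12% an N-box match and 12.6% an MCAT match. Among the other windows, Sgcd held 2 E-box matches and 1 MCAT match. Nid1 held 1 N-box and 1 MCAT match, which share letters. Chrne, the acetylcholine receptor gene of the adult neuromuscular junction and not one of the 10, held 1 N-box and 1 E-box match. These matches describe letters and not binding, and in the GENCODE annotation the Lama2, Utrn and Sgcd genes all start upstream of these windows. On chromosome 10, Lama2 starts at 27619758 and Utrn at 12869365. The Lama2, Utrn and Sgcd windows thus lie inside the annotated genes. A motif missing from them says nothing of the sequence before the upstream starts.

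**Figure D1:**
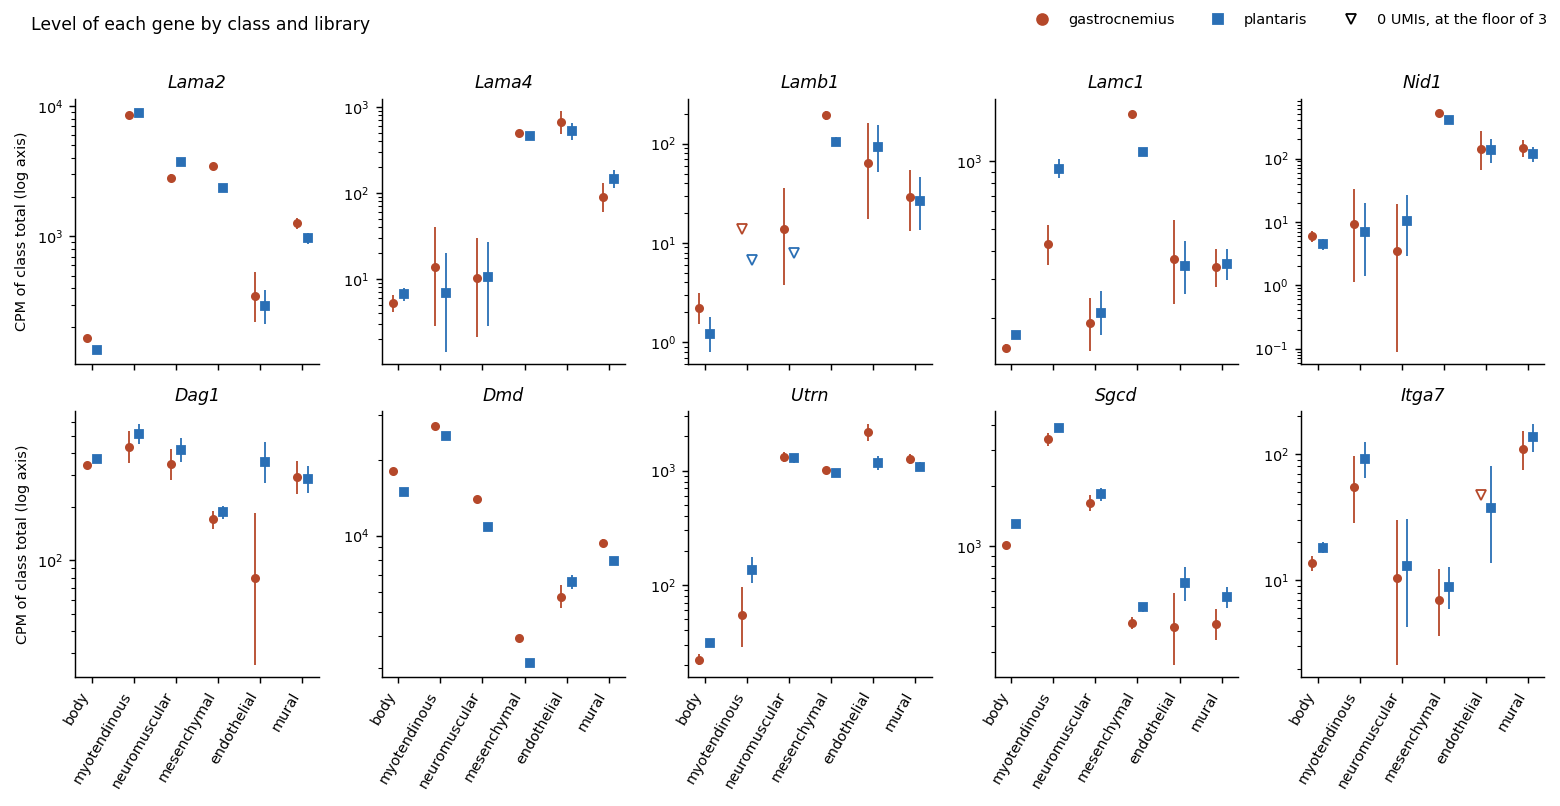
Level of each gene in CPM of the class total (vertical axis, logarithmic, a separate scale per gene) in 6 classes (horizontal axis) of gastrocnemius (circles) and plantaris (squares), with 95% counting intervals. Open triangles mark classes with 0 UMIs, drawn at the floor of 3 UMIs. Lama2 peaked in myotendinous myonuclei at 8549 and 8929 CPM, whereas Utrn was lowest in body myonuclei at 22.3 and 31.2 CPM.

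Lama2, the α2 chain of the laminin of the muscle fibre sheath, had its highest level in myotendinous myonuclei and its lowest in body myonuclei, in both libraries. It measured 8549 CPM (8165 to 8946) and 8929 CPM (8652 to 9212) in the myotendinous gate of gastrocnemius and plantaris, against 166 CPM (159.5 to 173) and 134 CPM (129 to 139) in body myonuclei. The difference was 51.5-fold in gastrocnemius, a log2 ratio of 5.69 (5.6 to 5.77), and 66.6-fold in plantaris, a log2 ratio of 6.06 (5.99 to 6.13). Nearly all gated nuclei carried it. Myotendinous nuclei held 3 to 157 Lama2 UMIs each in gastrocnemius (median 29) and 0 to 164 in plantaris (median 25), whereas the median body myonucleus held 0. A single gated nucleus, in plantaris, had no Lama2 UMI.

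Neuromuscular myonuclei followed, at 2823 CPM (2633 to 3024) and 3699 CPM (3508 to 3897) of Lama2. These were 17.0-fold and 27.6-fold above body myonuclei, log2 ratios of 4.09 and 4.79. Here the nuclei were unlike one another: 24 of 84 and 28 of 93 had no Lama2 UMI, and the highest held 61 and 112. Of the gated nuclei, 48 of 84 and 61 of 93 lay in a single cluster. The others were spread over the other myonuclear clusters, and the levels given for this gate, here and below, cover both. Mesenchymal nuclei changed places with the neuromuscular gate between libraries, at 3448 CPM (3361 to 3537) in gastrocnemius and 2360 CPM (2308 to 2413) in plantaris. Pericytes stood at 1446 and 1118 CPM, and endothelial nuclei were lower, at 350 CPM (219 to 530) and 291 CPM (214 to 387). The endothelial intervals overlap those of smooth muscle nuclei (401 and 290 CPM), so the order of these neighbours is not set by the counts.

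Counted by source, mesenchymal nuclei gave 43.5% and 36.0% of all Lama2 UMIs of the analysed nuclei. The 51 and 106 myotendinous nuclei gave 13.7% and 18.3%, while 4960 and 5598 body myonuclei gave 18.2% and 12.8%. Body Lama2 was itself uneven. Of body myonuclei, 64 and 94 held 5 or more Lama2 UMIs, and 23 and 39 of these lay in the 2 clusters that hold most gated nuclei. Those clusters held 1.29% and 1.27% of body myonuclei and 18.4% and 33.7% of body Lama2 UMIs. Outside them, body Lama2 was 137 and 89.8 CPM.

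Lamc1, the γ1 chain shared by most laminins, was also higher in myotendinous myonuclei, but by less and unequally in the muscles. It measured 427 CPM (344.5 to 523) and 928 CPM (841 to 1023), against 147 CPM (141 to 154) and 169 CPM (164 to 175) in body myonuclei. The log2 ratios were 1.53 (1.22 to 1.83) and 2.45 (2.30 to 2.60). Neuromuscular nuclei had 190 and 212 CPM, with log2 ratios of 0.37 (-0.05 to 0.75) and 0.32 (-0.01 to 0.64) that include 0. Mesenchymal nuclei were highest, at 1620 and 1107 CPM. In body myonuclei, Lamc1 stood at 9.10% and 15.3% of its mesenchymal level, above all the mesenchymal markers, which ranged from 0.859% to 1.49% in gastrocnemius and from 0.789% to 3.02% in plantaris. The same measure for Lama2 was 4.81% and 5.68%.

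Lama4, Lamb1 and Nid1 had a different pattern: they were high outside the fibre and near 0 in all myonuclei. Lama4, the α4 chain of vessel and adipose laminins, measured 668 CPM (481 to 903) and 520 CPM (415 to 644) in endothelial nuclei and 499 CPM (466 to 534) and 461 CPM (438 to 485) in mesenchymal nuclei, whose intervals overlap. Body myonuclei had 5.24 and 6.60 CPM, and each junction gate held 3 or 4 UMIs per library. Nid1, nidogen 1, was, of the 6 classes, highest in mesenchymal nuclei, at 532 CPM (498 to 568) and 405 CPM (383 to 427), followed by mural (147 and 118 CPM) and endothelial nuclei (143 and 136 CPM), whose intervals overlap. Body myonuclei had 5.91 and 4.4 CPM of Nid1.

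Lamb1, the β1 chain, measured 193 CPM (172 to 214) and 105 CPM (94.0 to 116) in mesenchymal nuclei and 2.22 and 1.22 CPM in body myonuclei. Both myotendinous gates held 0 Lamb1 UMIs, for which a floor of 3 counts allows up to 13.8 and 6.81 CPM. As shares of their mesenchymal level, Lama4, Lamb1 and Nid1 in body myonuclei ran from 1.05% to 1.43%, inside the range of the mesenchymal markers. What part mesenchymal RNA has in their myonuclear counts was not tested.

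Dag1, which encodes dystroglycan, varied little among the 3 myonuclear classes. It measured 342 CPM (332 to 351) and 371 CPM (363 to 380) in body myonuclei, 436 CPM (353 to 533) and 515 CPM (450 to 587) in the myotendinous gate, and 346 CPM (281 to 420) and 419 CPM (356 to 489) in the neuromuscular gate. The myotendinous log2 ratios were 0.35 (0.04 to 0.65) and 0.47 (0.28 to 0.66), above 0 but under the 2-fold limit. Mesenchymal nuclei had 170 and 186 CPM, with log2 ratios of -1.01 and -1.0. The plantaris value fell just short of 2-fold, so Dag1 was not called there. In endothelial nuclei, 5 and 58 UMIs gave 79.5 CPM (25.8 to 186) and 359 CPM (273 to 464), and 16 of the 58 came from 1 nucleus.

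Itga7, the integrin that pairs with β1 as the fibre's laminin integrin, was sparse. Body myonuclei had 13.6 CPM (11.8 to 15.6) and 18.2 CPM (16.4 to 20.1). The myotendinous gate had 55.1 CPM (28.5 to 96.2) and 90.8 CPM (64.9 to 124), from 12 and 40 UMIs. The log2 ratios were 2.01 (1.04 to 2.85) and 2.32 (1.81 to 2.79), while the neuromuscular gate, with 3 and 5 UMIs, had no call. Itga7 was highest in mural nuclei, at 108 CPM (75.1 to 152) and 136 CPM (104 to 174), and pericytes and smooth muscle did not differ beyond their intervals. Itgb1, which encodes its partner chain and was picked for this after its values were seen, went at the myotendinous gate from 95.7 to 413 CPM in gastrocnemius and from 96.6 to 699 CPM in plantaris.

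Dmd was abundant in all myonuclei and ordered the 3 classes the same way in both muscles. The myotendinous gate had 27093 CPM (26406 to 27793) and 24871 CPM (24407 to 25341), body myonuclei 18070 CPM (18002 to 18138) and 14927 CPM (14875 to 14980), and the neuromuscular gate 13963 CPM (13536 to 14401) and 10829 CPM (10501 to 11164). The log2 ratios to body myonuclei were 0.58 (0.55 to 0.62) and 0.74 (0.71 to 0.76) for the myotendinous gate and -0.37 (-0.42 to -0.33) and -0.46 (-0.51 to -0.42) for the neuromuscular gate. None reached 2-fold. The median nucleus held 97 and 87 Dmd UMIs in the myotendinous gate, 49 and 47 in body myonuclei and 41 and 30 in the neuromuscular gate.

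As a share of the body level, myotendinous Dmd was 150% and 167% while Ttn was 81.9% and 79.2%. Neuromuscular Dmd, at 77.3% and 72.5%, lay close to Ttn, at 81.9% and 75.9%. Dmd thus stood apart from the titin gene in the myotendinous gate, and less so in the neuromuscular gate.

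Utrn ordered the classes differently, with body myonuclei lowest. Body myonuclei had 22.3 CPM (19.96 to 24.8) and 31.2 CPM (28.8 to 33.7), the lowest of the 11 classes. The neuromuscular gate had 1317 CPM (1188 to 1456) and 1277 CPM (1167 to 1396), 59.1-fold and 41.0-fold above body myonuclei. The log2 ratios were 5.88 (5.67 to 6.10) and 5.36 (5.18 to 5.53). In 35 of 84 and 33 of 93 of these nuclei no Utrn UMI was seen, and the median nucleus held 2 and 3. The myotendinous gate had 55.1 CPM (28.5 to 96.2) and 136 CPM (104 to 175), from 12 and 60 UMIs, log2 ratios of 1.30 (0.34 to 2.13) and 2.13 (1.72 to 2.51). One plantaris nucleus of that gate held 14 of the 60 UMIs.

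Outside fibres, Utrn was of the same order as in the neuromuscular gate. Endothelial nuclei had 2179 CPM (1829 to 2576) and 1170 CPM (1009 to 1349), mural nuclei 1251 CPM (1130 to 1381) and 1082 CPM (989 to 1182), and mesenchymal nuclei 1011 CPM (964 to 1060) and 953 CPM (920 to 987). The endothelial and mural intervals overlapped in plantaris and not in gastrocnemius. In body myonuclei, Utrn stood at 2.21% and 3.27% of its mesenchymal level, above the range of the mesenchymal markers in both libraries (up to 1.49% and 3.02%). Outside the clusters that held the most nuclei of each gate it stood at 1.995% and 2.72%, which in plantaris is inside that range.

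Sgcd, δ-sarcoglycan, was highest in the myotendinous gate, at 3405 CPM (3164 to 3659) and 3890 CPM (3708 to 4079). Body myonuclei had 1017 CPM (1001 to 1033) and 1290 CPM (1274 to 1306), which gave log2 ratios of 1.74 (1.63 to 1.85) and 1.59 (1.52 to 1.66). The neuromuscular gate lay between, at 1638 and 1811 CPM, log2 ratios of 0.69 (0.55 to 0.82) and 0.49 (0.38 to 0.60). Single nuclei followed the same order, with medians of 12 and 14 Sgcd UMIs in the myotendinous gate against 2 and 4 in body myonuclei.

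**Figure D2:**
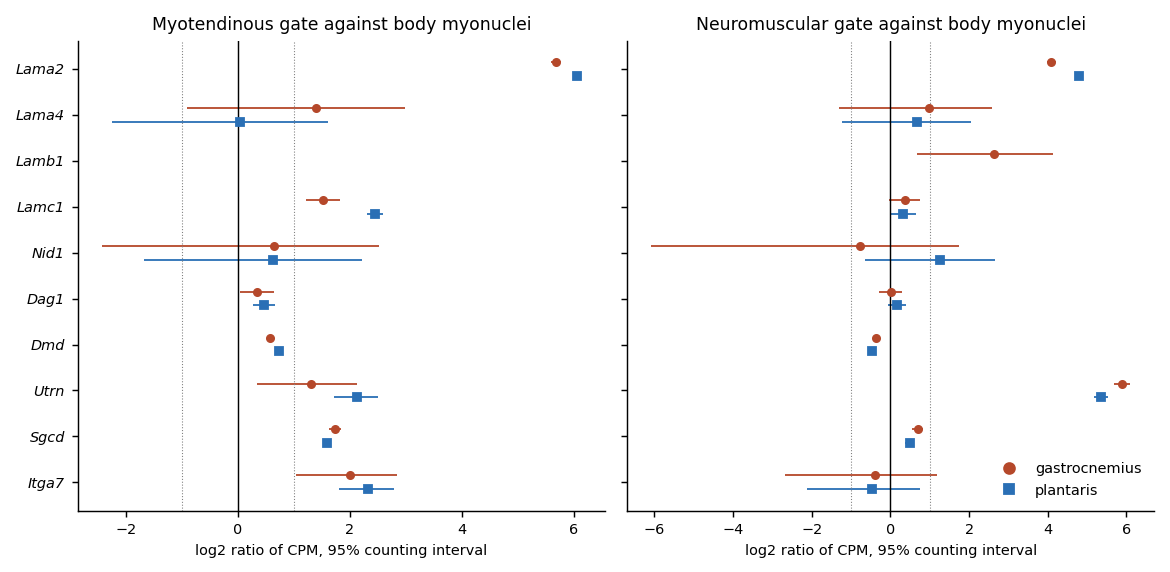
Log2 ratio of CPM in the myotendinous gate (left) and the neuromuscular gate (right) over body myonuclei for each of the 10 genes, in gastrocnemius (circles) and plantaris (squares), with 95% counting intervals; dotted lines mark 2-fold, and ratios with 0 UMIs are not drawn. Lama2 lies at 5.69 and 6.06 on the left, and Utrn at 5.88 and 5.36 on the right.

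Of the 9 genes with enough UMIs, 5 were called higher in the myotendinous gate (Lama2, Lamc1, Utrn, Sgcd and Itga7), where 6.33% of all genes compared were called higher. None was called lower, where 3.35% of all genes were. The call of Utrn was lost when each nucleus was weighted equally or nuclei with markers of other types were left out, and that of Itga7 when nuclei were thinned to 1000 UMIs. In the neuromuscular gate 2 of 9 were called higher, Lama2 and Utrn, where 6.32% of all genes were, and none lower, where 1.24% were. The median log2 ratio of the 9 was 1.39 and 1.59 at the myotendinous gate, beside 0.01 and -0.10 for all genes compared. At the neuromuscular gate it was 0.37 and 0.49, beside 0.10 and 0.05. The genes were chosen with earlier results of these data known, so these counts describe the set and are no test of it.

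Markers of other cell types were measured in the same gates. The 8 mesenchymal markers summed to 82.6 and 70.4 CPM in the myotendinous gate, 95.3 and 77.3 CPM in body myonuclei and 242 and 241 CPM in the neuromuscular gate. The 7 tenocyte markers were all at 0 in the gastrocnemius myotendinous gate, and 5 of them, Tnmd and Scx included, were at 0 in plantaris, with 9.08 CPM in sum. Myotendinous Lama2 was at 248% and 378% of its level in mesenchymal nuclei themselves. In the neuromuscular gate the mesenchymal markers stood at a median of 2.82% and 4.02% of their mesenchymal level, whereas Lama2 stood at 81.9% and 157% and Utrn at 130% and 134%.

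Within myonuclei the levels moved with the number of gating UMIs. Lama2 in gastrocnemius rose from 142 CPM at 0 Col22a1 UMIs to 992 at 1, 5634 at 2, 7759 at 3, 7550 at 4 to 9 and 11186 at 10 or more. The plantaris values were 101, 974, 4464, 4399, 7532 and 11565 CPM. The gate at 3 UMIs thus left out nuclei with 2 UMIs, 16 and 30 of them, that were closer to gated than to other myonuclei, and they count as body myonuclei here. Sgcd and Dmd rose along the same bins, Sgcd from 1011 to 4101 and from 1279 to 4169 CPM, and Dmd from 18049 to 32795 and from 14908 to 27888 CPM. Lamc1 rose to 976 CPM at 4 to 9 UMIs in plantaris but had no such order in gastrocnemius, where nuclei with 4 to 9 UMIs had 369 CPM.

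Along the summed UMIs of Colq and Ufsp1, Utrn in gastrocnemius rose from 22.3 CPM at 0 to 325 at 1, 653 at 2, 1785 at 3 to 4 and 2794 at 5 or more. In plantaris it was 31.2, 283, 1411, 1459 and 2074 CPM. Lama2 rose along with it, from 794 and 1132 CPM at 1 UMI to 5950 and 6055 CPM at 5 or more UMIs. Dmd went the other way, to 9293 and 9874 CPM. About as many gated nuclei rested on a single UMI, 43 and 41, as on more, and they had the lower levels of Utrn and Lama2 given for 1 UMI.

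**Figure D3:**
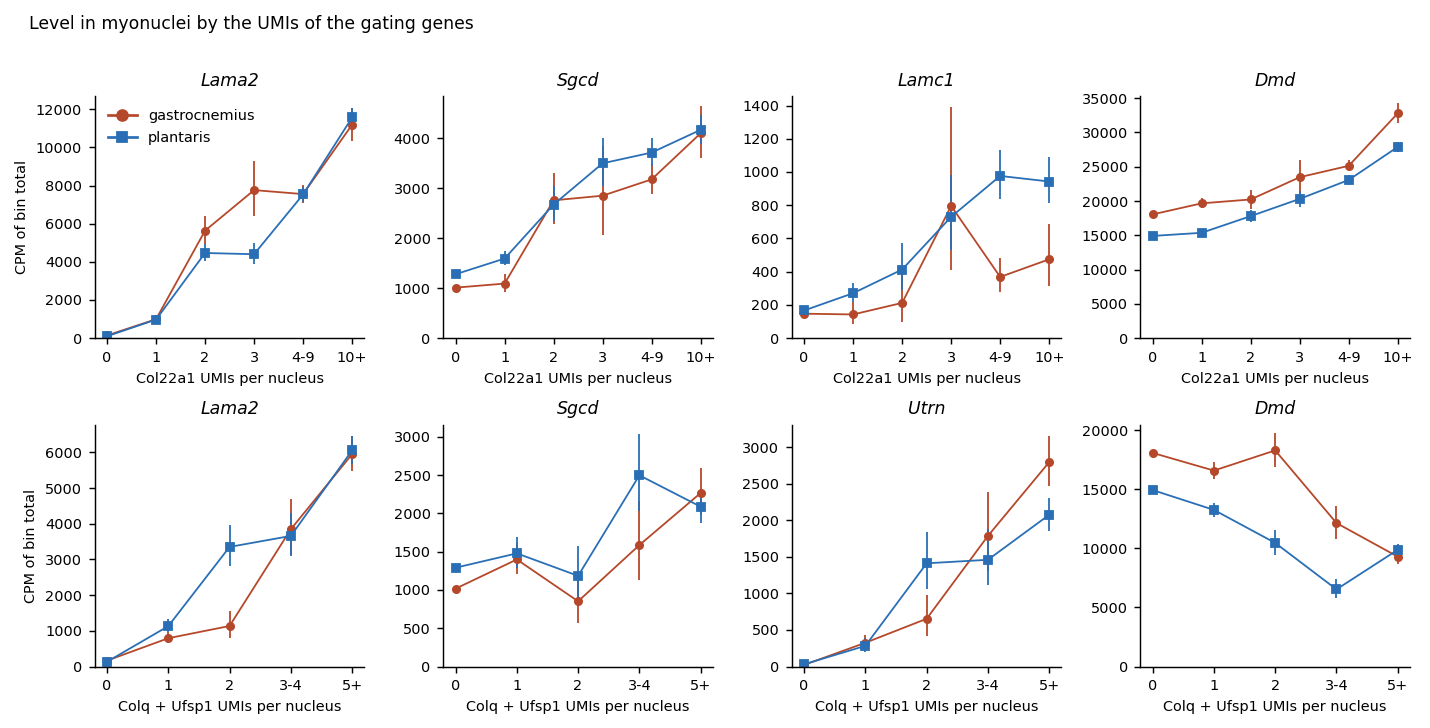
CPM of 4 genes per row (vertical axes, linear from 0, with 95% counting intervals) in myonuclei binned by Col22a1 UMIs (upper row) or by Colq plus Ufsp1 UMIs (lower row), in gastrocnemius (circles) and plantaris (squares). Lama2 rises in both rows, to 11186 and 11565 CPM above and 5950 and 6055 CPM below, whereas Dmd rises in the upper row and falls to 9293 and 9874 CPM in the lower.

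A wider list of 75 other adhesion genes, also chosen with earlier results of these data known, was counted in the same way. At the myotendinous gate, 10 of 52 compared were called higher and 4 lower, beside 6.33% and 3.35% of all genes. Of 5 basement membrane genes compared 4 were higher: the collagen IV genes Col4a2 (log2 ratios 3.22 and 3.90), Col4a5 (3.14 and 3.47) and Col4a1 (2.83 and 2.91), and the perlecan gene Hspg2 (2.91 and 2.26). Of 10 integrin genes compared 4 were higher, including the fibronectin receptor chain Itga5 (2.70 and 2.76), on 2 and 7 UMIs in the gate. The gastrocnemius interval of Itga5, -0.43 to 4.73, includes 0. That of Itga11, also called, does too (-0.88 to 4.22), on 2 and 3 UMIs in the gate. Of 12 other dystrophin complex genes none was higher, and the syntrophin gene Sntb1 was lower (-2.76 and -4.44). Sgce and Sntb2 passed 2-fold upward in gastrocnemius alone (log2 ratios 1.60 and 0.93, and 3.13 and 0.40), and are named after their values were seen.

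At the neuromuscular gate, 15 of 54 were called higher and 2 lower, beside 6.32% and 1.24% of all genes. The collagen IV chains found at the synapse led, with Col4a3 at log2 ratios of 7.73 and 7.67, Col4a4 at 5.75 and 6.08 and Col4a5 at 4.64 and 4.36. Col4a2 had 2.81 and 3.51, and the integrin gene Itga5, on 3 and 6 UMIs in the gate, had 2.88 and 2.74. The syntrophin gene Sntb2 was higher (4.09 and 3.89), while Dtnb and Nos1, dystrobrevin β and neuronal nitric oxide synthase, were lower.

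In mesenchymal nuclei, 6 of the 10 genes were called higher than in body myonuclei, where 27.1% of all genes were. They were Lama2, Lama4, Lamb1, Lamc1, Nid1 and Utrn. Lower calls went to Dmd and Sgcd, where 10.7% of all genes were lower. The log2 ratios were 4.38 and 4.14 for Lama2, 6.57 and 6.13 for Lama4, 6.44 and 6.42 for Lamb1, 3.46 and 2.71 for Lamc1, 6.49 and 6.52 for Nid1 and 5.50 and 4.93 for Utrn. Of the 75 listed genes, 31 of 68 were higher and 16 lower, beside 27.1% and 10.7% of all genes, led by the adhesion linker gene Lims2 (7.31 and 7.39) and Col4a1 (6.76 and 6.70). The median log2 ratio over the 10 was 3.92 and 3.42, beside 0.42 and 0.39 over all genes.

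Endothelial nuclei shared the same 6 higher calls among 9 genes compared, where 23.9% of all genes were higher, and Dmd was lower, where 3.59% were. The smallest were Lama2 (log2 ratios 1.08 and 1.12) and Lamc1 (1.31 and 1.01), while Lama4 had 6.99 and 6.30. Utrn had 6.61 and 5.23, and Lamb1, on 4 and 15 endothelial UMIs, 4.84 and 6.25. Both small calls lie near the 2-fold limit and were lost under median-ratio scaling, with equal weight per nucleus and after thinning. Of the list, 18 of 44 were higher and 5 lower, beside 23.9% and 3.59% of all genes, led by the laminin-binding integrin Itga6 (8.56 and 8.94). In mural nuclei 7 of 10 were higher, Itga7 joining the other 6, where 17% of all genes were, and Sgcd was lower, where 3.19% were. The mural calls of Lamb1 and Lamc1 were lost after thinning. Mural Itga7 had log2 ratios of 2.99 (2.42 to 3.52) and 2.90 (2.49 to 3.29). The list gave 26 of 61 higher and 2 lower, beside 17% and 3.19% of all genes, with Itga1, a collagen-binding integrin, at 7.62 and 8.06. Itga8 (7.89 and 7.88) was one of the smooth muscle markers that named the class, so its level there is no result.

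The lower level of Dmd outside fibres was compared with titin. In mesenchymal nuclei Dmd stood at 21.8% and 21.0% of its body level, beside Ttn at 15.2% and 19.4% and the median marker at 24.7% and 27.5%. In pericytes it was 49.2% and 47.9%, beside 42.4% and 47.7%. Smooth muscle nuclei had 62.5% and 75.8%, beside 37.5% and 65.1%, on 20 and 23 nuclei. In endothelial nuclei Dmd was above Ttn in gastrocnemius, 31.7% against 22.2%, and below it in plantaris, 43.9% against 53.0%. How much of the Dmd in these classes was fibre RNA was not tested. Sgcd in mesenchymal nuclei stood further from Ttn, at 41.0% and 38.6%, and above the median marker. The 7 myonuclear markers used there ran from 15.2% to 106% in gastrocnemius and from 19.4% to 155% in plantaris. Sgcd lay within that range, but the range passes the body level itself and so is too wide to place it. How much of the mesenchymal Sgcd was fibre RNA was not tested either.

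**Figure D4:**
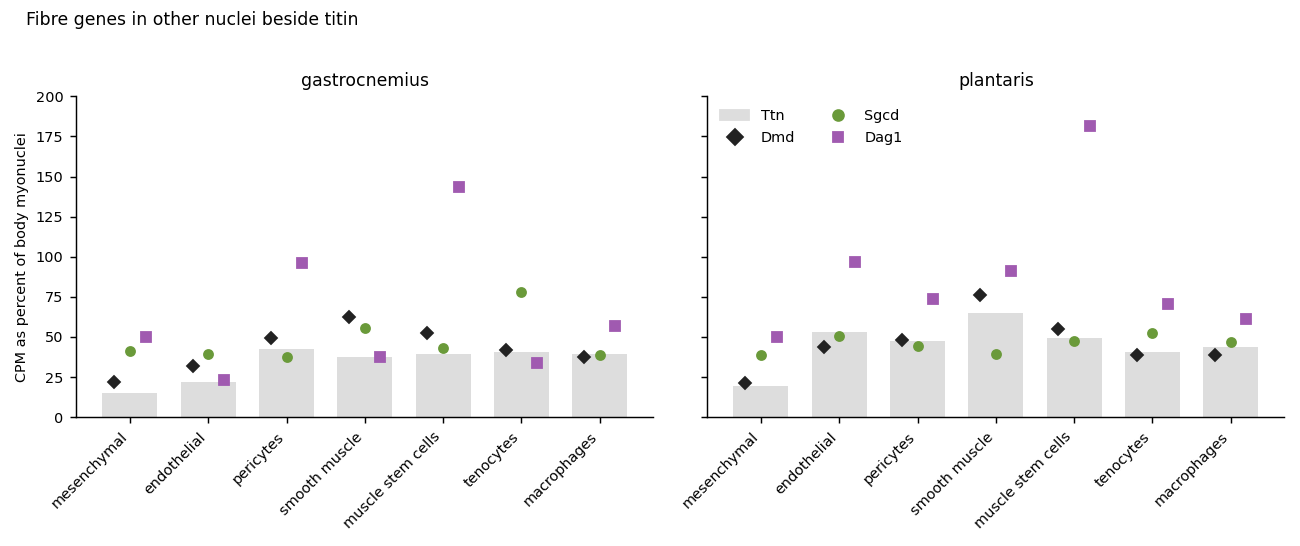
CPM as a percent of the level in body myonuclei (vertical axis, from 0) for Ttn (grey bars), Dmd (diamonds), Sgcd (circles) and Dag1 (squares) in 7 other classes, for gastrocnemius (left) and plantaris (right). Dmd stays near the Ttn bar in most classes, for example at 21.8% and 21.0% beside 15.2% and 19.4% in mesenchymal nuclei.

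Mesenchymal nuclei were also split into a Bmper and Col15a1 subtype (741 and 1057 nuclei) and a Dpp4 and Pi16 subtype (194 and 292 nuclei). None of 9 genes compared reached 2-fold in both libraries, where 7.54% of all genes did. Lamb1 came closest, with log2 ratios of 1.64 (1.04 to 2.3) and 0.87 (0.42 to 1.36). Lama2 followed, at 3965 against 1852 CPM in gastrocnemius and 2715 against 1498 CPM in plantaris, log2 ratios of 1.10 (0.97 to 1.22) and 0.86 (0.76 to 0.96). Utrn went the other way, at 784 against 1639 and 786 against 1382 CPM, log2 ratios of -1.06 (-1.22 to -0.91) and -0.82 (-0.93 to -0.70). The basement membrane genes of the list differed more, with 7 of 8 called higher in the Bmper and Col15a1 subtype, Col4a3 (2.56 and 2.56) and Col4a1 (2.46 and 2.15) among them.

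Fibre type was compared through the myosin heavy chain gene that led in each body myonucleus. Lamc1 was lower in nuclei led by Myh2, of type IIa fibres, than in those led by Myh4, of type IIb fibres, at 68.2 against 152 CPM and 70.4 against 193 CPM. The log2 ratios were -1.16 (-1.70 to -0.66) and -1.46 (-1.72 to -1.21). This call, lost in nuclei thinned to 1000 UMIs, was the only one among 8 genes compared, where 4.78% of all genes were lower and 6.1% higher. Against Myh4 nuclei, Myh1 nuclei had no call among 10 genes, where 6.37% of all genes had one. Lamc1 in them was 78.8 and 98.7 CPM, also below Myh4 nuclei and just short of 2-fold. Its log2 ratios were -0.95 (-1.52 to -0.43) and -0.97 (-1.15 to -0.79), so the lower level is not particular to Myh2 nuclei. Dmd differed little by fibre type, at 18029, 20256 and 17547 CPM in Myh4, Myh1 and Myh2 nuclei of gastrocnemius and 14588, 16440 and 15676 CPM in plantaris. Of the list, 3 of 55 genes were higher and 5 lower in Myh2 nuclei, beside 6.1% and 4.78% of all genes. Sntb1 (-2.67 and -2.57) was lower and the ankyrin gene Ank2 (3.04 and 2.32) higher. Both were called the same way in Myh1 nuclei against Myh4 nuclei, Sntb1 at -2.06 and -1.10 and Ank2 at 2.85 and 2.26. Neither is thus particular to Myh2 nuclei.

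The muscles were then compared within each class. In body myonuclei none reached 2-fold, where 11.6% of all genes did. The largest was Lamb1, 1.81-fold lower in plantaris on 33 and 25 UMIs. Within fibre types, on few UMIs, Lamb1 was 2.16-fold lower in plantaris in Myh4 nuclei (27 and 14 UMIs). Lama4 was 3.52-fold higher in Myh1 nuclei (1 and 25 UMIs) and Itga7 2.65-fold higher in Myh2 nuclei (2 and 21 UMIs). The log2 intervals of Lama4 there, -0.80 to 7.18, and of Itga7, -0.63 to 4.54, include 0. In tenocytes Nid1 (8 and 112 UMIs) and Dag1 (11 and 150 UMIs) were 2.35-fold and 2.29-fold higher in plantaris. No share of all genes is given beside these fibre-type and tenocyte values. Clusters 0, 4 and 9 of the body myonuclei came mostly from gastrocnemius and clusters 1, 3, 5 and 7 mostly from plantaris. In the neuromuscular gate none of 6 reached 2-fold, where 11% of all genes did; Lama2 was 1.31-fold higher in plantaris and Dmd 1.29-fold lower. In mesenchymal nuclei none of 10 did, where 7.93% did, although Lamb1 (log2 ratio of plantaris over gastrocnemius -0.88), Lama2 (-0.55) and Lamc1 (-0.55) were all lower in plantaris. In mural nuclei none of 10 did, where 10.3% did.

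In the myotendinous gate 2 of 7 genes were called higher in plantaris, where 9.47% of all genes were, and none lower, where 4.76% were. Lamc1 had a log2 ratio of 1.12 (0.79 to 1.46) and Utrn 1.31 (0.40 to 2.34), whereas Lama2 differed by 1.04-fold. Both calls were lost in nuclei thinned to 1000 UMIs. In endothelial nuclei Dag1 was called higher in plantaris, with 2.17 (0.87 to 3.85), 1 of 8 genes compared, where 11.6% of all genes were higher and 8.4% lower. Of its 58 UMIs in plantaris 16 came from 1 nucleus, and when nuclei were thinned Dag1 was no longer called.

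**Figure D5:**
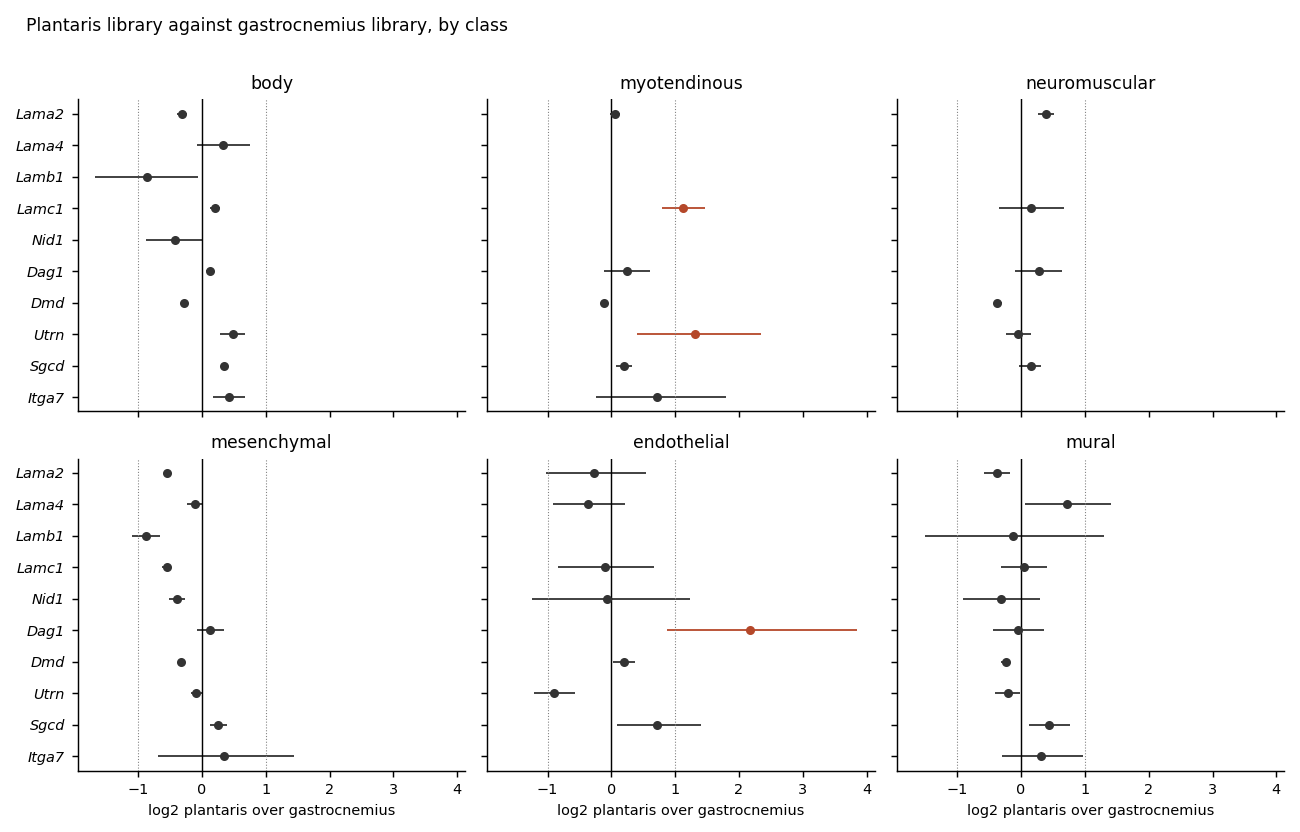
Log2 ratio of CPM in plantaris over gastrocnemius (horizontal axis, with 95% counting intervals) for the genes with 20 or more UMIs over both libraries, in 6 classes; dotted lines mark 2-fold and red points the calls. The red points are Lamc1 (1.12) and Utrn (1.31) in the myotendinous gate and Dag1 (2.17) in endothelial nuclei.

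The genes whose profile over 11 classes was most like each member are given by the lower of the 2 libraries' Pearson correlations of log2(CPM + 10), among 6879 genes. The classes share libraries, depth and free RNA, so these are descriptions. The values for Lama2 were lowest, with Maml3 at 0.70, Fgf7 at 0.69 and Mpdz at 0.68. Lama4 was most like Stard13 (0.92), Lims2 (0.91) and Magi3 (0.90), Nid1 like Fbn1 (0.93), Epb41l2 (0.93) and Osmr (0.92), and Lamb1 like Zzef1 (0.89), Srgap1 (0.88) and Smurf2 (0.87). Dmd was most like Tmem117 (0.94), Pde4dip (0.94) and Asb2 (0.93), and Sgcd like Ubr3 (0.88), Zfp641 (0.86) and Dst (0.85). Utrn was most like Ctdspl (0.86), Jazf1 (0.81) and Plcb4 (0.81), and Lamc1 like Pcdh9 (0.84), Iqsec2 (0.82) and Grm8 (0.81). Itga7 was most like Adcy6 (0.78), Tmem38b (0.76) and Mrvi1 (0.74), and Dag1 like Prkcq (0.76), Cux1 (0.75) and Coq10a (0.72). Among the members, Lamb1 and Nid1 were alike (0.84), as were Lama4 and Nid1 (0.81), while Dmd and Nid1 ran opposite (-0.82 and -0.93 in the 2 libraries).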

How the data were processed

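The authors deposited UMI counts per gene and nucleus for 1 gastrocnemius and 1 plantaris library, made with the Chromium 3' kit v3.1 per the labels. Cell Ranger 6.0.1 and mm10 are named in the submitters' processing notes. The annotation and the counting of introns were not given in the sources used here. The tables held 7374 and 9156 nuclei with 19048595 and 29248275 UMIs. The filter asked for at least 200 genes and less than 5% mitochondrial UMIs per nucleus (6 plantaris nuclei failed). A doublet caller marked 2 and 1 nuclei (0.0271% and 0.0109%), which counts as not having worked, so doublets remain. Nuclei of both libraries were clustered (scanpy 1.11.5, leidenalg 0.10.2, 2000 variable genes, 30 components, 15 neighbours, resolution 1) without the 10 genes and the 75 listed genes, and clusters were named from marker lists; 587 and 636 nuclei stayed unnamed. Counts were summed per class and library. CPM has exact Poisson intervals and log2 ratios exact conditional binomial intervals, by scipy 1.17.1; PCR copies are collapsed by the UMIs. The contrast code was tested on simulated data.

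The 10 genes are given in every main class. Of the wider list, up to 6 called genes per contrast were eligible to be named, ranked by the smaller absolute log2 ratio of the libraries, and the 3 genes most like each member are named, among genes with 200 or more UMIs in each library. The members and lists were chosen with earlier results of these data known. Alternatives were another scaling, equal weight per nucleus, thinning to 1000 UMIs, no minimum, other clusterings, stricter gates, and leaving out nuclei with high doublet scores or markers of other types.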

Additional observations from a re-analysis of the deposited data

Results flagged for a closer look

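Dmd went in opposite directions in the libraries in 2 contrasts, by amounts far under 2-fold. Between the Bmper and Col15a1 and the Dpp4 and Pi16 mesenchymal nuclei its log2 ratio was 0.21 in gastrocnemius and -0.12 in plantaris. Between Myh2 and Myh4 body myonuclei it was -0.04 in gastrocnemius and 0.10 in plantaris. The difference between the libraries was not tested in either contrast, since each muscle has 1 library.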

How the results depend on the processing

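No paired analysis was possible because there is 1 library per muscle, without replicate numbers, and the labels do not say whether both muscles came from the same mice. Over all alternatives, 1272 of 1510 values of single genes stayed within their counting interval, 238 left it and 0 changed direction while called. Of the 1272, 210 came from dropping the minimum of 20 UMIs, which leaves each ratio as it was. Under the other settings, from 16 of 199 (all variable genes kept for clustering) to 16 of 28 (nuclei with other-type markers left out) left it. It was 57 of 173 under thinning, 47 of 200 with equal weight per nucleus and 13 of 36 with stricter gates. Lama2 in both junction gates and Utrn in the neuromuscular gate were called under every alternative run. With nuclei thinned to 1000 UMIs, the number of the 10 genes called was 4 in place of 7 in endothelial nuclei, 1 in place of 0 between the mesenchymal subtypes (Lamb1), 0 in place of 1 between Myh2 and Myh4 myonuclei, and 1 in place of 3 between the muscles by class. With no minimum of 20 UMIs it was 1 between the mesenchymal subtypes (Itga7), 2 between Myh2 and Myh4 myonuclei and 5 between the muscles. The counts between the muscles cover the main classes, not tenocytes or body myonuclei split by fibre type. Under thinning the 3 calls between the muscles given above were all lost, so the 1 counted there is another call. Thinning leaves fewer genes with enough UMIs. Median-ratio scaling moved the median log2 ratio of all genes from 0.42 and 0.39 to 0.24 and 0.19 in mesenchymal nuclei. Leaving out nuclei with markers of other types removed 45.8% and 53.6% of body myonuclei because body myonuclei express the pericyte marker Abcc9. That alternative also removed 58.8% and 53.8% of the myotendinous gate and 52.4% and 50.5% of the neuromuscular gate. The same alternative without Abcc9, and one that leaves out body nuclei of the junction clusters, were therefore chosen after seeing the data. Depth limits Lama4, Lamb1, Nid1 and Itga7 in the junction gates, where most values rest on 0 to 5 UMIs.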

Other observations

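Classes outside the main comparisons also carried these genes. Muscle stem cells, the reserve cells under the basement membrane, had the highest Dag1 of the 11 classes, at 490 and 675 CPM in gastrocnemius and plantaris. The rank is not set by the counts. The gastrocnemius interval (399 to 596) overlaps that of the myotendinous gate (353 to 533). The plantaris interval (607.5 to 747) overlaps that of adipocytes (211.5 to 679). Muscle stem cells also had Lama2 at 1553 and 1621 CPM and Lamc1 at 892 and 578 CPM. Adipocyte nuclei, 28 and 13 in number, had Utrn at 2946 CPM (2458 to 3502) and 1375 CPM (1003 to 1840), where the plantaris interval overlaps that of the neuromuscular gate, and Lama4 at 621 and 581 CPM. Tenocyte nuclei, 57 and 167 in number, had Lama2 at 1753 and 1550 CPM, below the myotendinous myonuclei. In macrophages Lama2 stood at 20.4% and 39.1% of its mesenchymal level, where the mesenchymal markers ranged from 11.9% to 24.0% and from 24.4% to 61.7%.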
